A study of Mus musculus with 14 samples.

Results

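Members of the Toll-like receptor (TLR) system were followed in liver sinusoidal endothelial cells (LSECs), the fenestrated cells that line the sinusoids of the liver. The 10 genes, Cd14, Ly96, Tlr1, Tlr2, Tlr3, Tlr4, Tlr7, Tlr9, Tlr13 and Myd88, were picked by gene symbol from the 54524 genes of the count table. The LSECs came from male Balb/c mice of 10 to 12 weeks and were sorted as CD32+ and F480-, without UV autofluorescence or propidium iodide (PI) staining; the study's methods add CD45- and give another age range. There were 14 mice in 4 groups. Livers of 4 healthy mice received no injection, and the other mice received 0.5 µL per g of body weight of carbon tetrachloride (CCl4), a solvent that injures hepatocytes, in mineral oil, and were taken at day 1 (n = 2), day 3 (n = 4) or day 7 (n = 4). No group was injected with mineral oil alone, so CCl4 and its vehicle cannot be told apart, and the study left out 2 day 1 samples because of low RNA quality.

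TLRs are receptors of innate immunity that recognise molecules of microbes and of damaged cells. CD14 takes up lipopolysaccharide and hands it to TLR4, which binds it only together with MD2, the product of Ly96. TLR2 pairs with TLR1 to bind bacterial lipopeptides at the cell surface, while TLR3, TLR7, TLR9 and TLR13 sit in endosomes and sense double-stranded RNA, single-stranded RNA, CpG DNA and bacterial ribosomal RNA. MyD88 is the adaptor of all of these except TLR3. LSECs take up bacterial products that arrive from the gut with portal blood, and myeloid cells also express many of these genes.

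Cd14, Tlr1, Tlr13 and Myd88 rose at day 1, Cd14, Tlr1 and Tlr13 at day 3, and Cd14 at day 7. None of the 10 members fell against healthy LSECs in edgeR over all 14 samples, while DESeq2 called Tlr3 lower at day 3 and limma's voom with sample quality weights called Tlr3 lower at days 3 and 7 and Ly96 and Myd88 lower at day 7. The promoters of 3 of these 4 genes are shown because they are the members that moved. Promoter sequence from RefSeq (GRCm38.p6) is reported for 6 of the 10 members. That of Cd14, Ly96, Tlr4 and Tlr7 is not reported, which does not mean that RefSeq lacks it or that it holds no motif. The 250 bases before each start were searched on both strands for 3 letter strings that do not overlap one another. These were GAGGAAG, the core bound by PU.1 (the product of Spi1), GGGA and TTCC around any 2 bases, an NF-kB motif, and GAAA and GAAA around any 2 bases, an interferon response motif. The sequences run 5′ to 3′ toward the start, stop where an annotated exon of the gene begins, and carry the match in capitals.
Tlr13, chrX:106143025-106143203, plus strand: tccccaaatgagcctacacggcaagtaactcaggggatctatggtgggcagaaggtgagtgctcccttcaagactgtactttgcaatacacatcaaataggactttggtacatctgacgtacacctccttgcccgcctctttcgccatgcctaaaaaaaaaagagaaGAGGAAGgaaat
Tlr1, chr5:64933564-64933808, minus strand: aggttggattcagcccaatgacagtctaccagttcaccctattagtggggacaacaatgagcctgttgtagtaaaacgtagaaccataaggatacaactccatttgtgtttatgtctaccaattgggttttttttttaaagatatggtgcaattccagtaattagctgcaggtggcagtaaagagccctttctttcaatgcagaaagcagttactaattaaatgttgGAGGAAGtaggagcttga
Myd88, chr9:119340042-119340268, minus strand: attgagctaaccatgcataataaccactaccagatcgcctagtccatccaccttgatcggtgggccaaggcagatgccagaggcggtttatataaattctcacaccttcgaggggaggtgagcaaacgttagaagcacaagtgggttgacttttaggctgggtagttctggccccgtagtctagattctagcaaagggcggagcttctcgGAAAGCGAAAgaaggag
The first base of GAGGAAG lay 83 bases before the RefSeq start of Tlr13 and 23 bases before that of Tlr1, and the interferon response motif began 40 bases before that of Myd88. GAGGAAG also stood 112 bases before the start of Tlr9 and the NF-kB motif 211 bases before that of Tlr3, while the window of Tlr2 and that of another start of Tlr1 held none of the 3. Of 32851 promoters of the same length, 10.6% held GAGGAAG, 1.21% the NF-kB motif and 2.98% the interferon response motif. These matches describe the letters of the windows only. The windows of Myd88 and Tlr3 and that of the other start of Tlr1 lie wholly inside the spans that GENCODE gives these genes. The Tlr3 match lies outside the longest stretch of its window that is free of Tlr3 exons.

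Each sample held 46401496 to 103912264 counts, and all 10 members passed the filter on low counts, which left 26626 genes. Levels are given as CPM, counts scaled to library size with the TMM method, and a gene was called at an adjusted p under 0.05 in edgeR's quasi-likelihood test over all 14 samples (Benjamini-Hochberg adjustment over all tested genes). Day 3 was the least uniform group, with 34678, 34768, 28203 and 22986 genes that had a count in replicates 1 to 4. The summed level of 12 LSEC markers was 17350 to 20830 CPM in healthy samples, 13080 to 16140 CPM at day 1, 10990 to 15910 CPM at day 3 and 10430 to 14750 CPM at day 7. Stab2, the hyaluronan scavenger receptor of LSECs, was present at 947 CPM or more in every sample and markers of other cells were present too. The sum of 12 Kupffer cell and macrophage markers was 355 to 2255 CPM in healthy samples and 987 to 2772 CPM after CCl4. That of 12 monocyte and neutrophil markers was 522 to 1419 CPM in healthy samples, 4548 to 8625 CPM at day 1, 1392 to 13570 CPM at day 3 and 4208 to 9697 CPM at day 7. Stellate cell markers (11 genes) summed to 164 to 287 CPM in healthy samples, 264 to 355 CPM at day 1, 843 to 2551 CPM at day 3 and 453 to 7091 CPM at day 7. Hepatocyte markers (10 genes) summed to 8304 CPM in healthy replicate 4 and 200 to 394 CPM in the other healthy samples. After CCl4 their sum was 30.4 to 131 CPM at day 1, 1081 to 3420 CPM at day 3 and 815 to 6162 CPM at day 7. Vascular endothelial markers (10 genes) summed to 2036 to 2717 CPM in healthy samples and 6723 to 7471 CPM at day 1. Fabp4 alone held 5199 to 5290 CPM of the latter. In bulk samples, fewer cells of a type and less RNA per cell cannot be told apart.

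Levels were compared between genes as CPM per kb of exons. In healthy LSECs Ly96 had the highest mean, 103.7 ± 19.2 CPM per kb (SD, n = 4), followed by Cd14 at 69.6 ± 21.5 CPM per kb and Myd88 at 30.5 ± 3.71 CPM per kb. The ranges of Ly96 and Cd14 overlapped, while Cd14, Myd88, Tlr2 (13.9 ± 1.69 CPM per kb) and Tlr3 (6.84 ± 1.16 CPM per kb) each stood clear of the next gene in the order. Tlr4 (2.19 ± 1.98 CPM per kb), Tlr13 (1.09 ± 0.543 CPM per kb), Tlr7 (0.972 ± 0.682 CPM per kb) and Tlr1 (0.874 ± 0.314 CPM per kb) overlapped with their neighbours. Tlr9 was the lowest at 0.0604 ± 0.0394 CPM per kb. After CCl4, Cd14 took the first place in each group, and Tlr13 moved from the 7th place in healthy LSECs to the 5th at day 1 and day 3 and the 6th at day 7. Ly96, Myd88 and Tlr2 kept the next places after Cd14 in this order at all 3 days. The order is a description with no test.

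**Figure D1:**
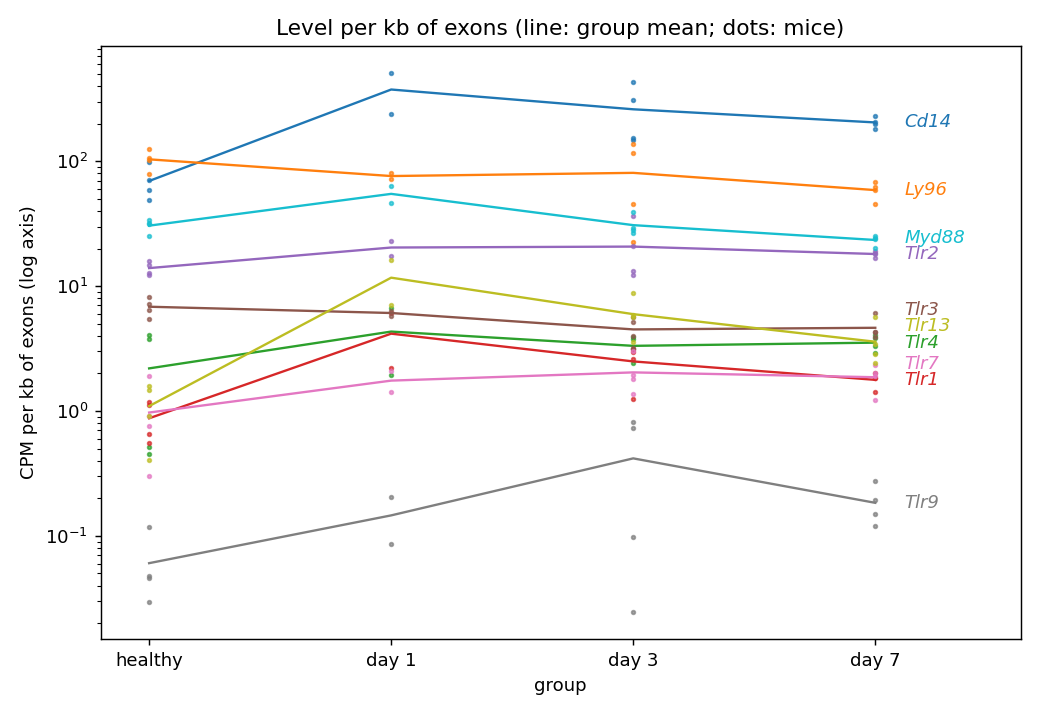
Level of each member in CPM per kb of exons (vertical log axis) in the 4 groups, with dots for mice and lines through the group means. Cd14 lies below Ly96 in healthy LSECs (means of 69.6 and 103.7 CPM per kb) and above it in each group after CCl4, and Tlr9 is the lowest line throughout.

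Cd14 (ENSMUSG00000051439, chromosome 18, 36725067 to 36726798, minus strand, GRCm38), the lipopolysaccharide co-receptor, was at 85.2, 171, 123 and 102 CPM in the 4 healthy mice. It was at 884 and 418 CPM at day 1, at 751, 536, 257 and 265 CPM at day 3, and at 358, 343, 403 and 315 CPM at day 7. Every sample after CCl4 lay above the highest healthy sample, and the spread was narrowest at day 7. The mean rose from 120.5 ± 37.2 CPM (SD, n = 4) to 651 ± 330.0 CPM (n = 2) at day 1, a log2 fold change of 2.43 ± 0.41 (SE, adjusted p = 0.00511). It was 1.91 ± 0.36 at day 3 (adjusted p = 0.00817) and 1.56 ± 0.36 at day 7 (adjusted p = 0.0358), so that Cd14 was the member called at all 3 days. The steps from day 1 to day 3 (log2 fold change of -0.53 ± 0.42, adjusted p = 0.601) and from day 3 to day 7 (-0.35 ± 0.35, adjusted p = 0.643) did not pass the test. All comparisons with healthy LSECs use the same 4 healthy mice. The day 7 call was lost when healthy replicate 1, 2 or 3 or day 7 replicate 2, 3 or 4 was left out, with an adjusted p of up to 0.112.

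Ly96 (ENSMUSG00000025779, chromosome 1, 16688051 to 16709611, plus strand) encodes MD2, the partner of TLR4. It did not pass the test at any day, at 128, 109, 105 and 80.7 CPM in healthy LSECs, 73.2 and 82.4 CPM at day 1, 119, 141, 46.7 and 23.1 CPM at day 3, and 69.5, 46.3, 60.4 and 63.9 CPM at day 7. The 4 samples of day 7 lay below every healthy sample, and those of day 3 fell on both sides of them. The log2 fold change at day 7 was -0.82 ± 0.42 (adjusted p = 0.276), against -0.45 ± 0.52 at day 1 (adjusted p = 0.75) and -0.36 ± 0.42 at day 3 (adjusted p = 0.663). In an edgeR model of the healthy and day 7 samples alone, Ly96 was called lower. The ratio of Cd14 to Ly96, both per kb, was 0.391 to 0.924 in the 4 healthy mice and 2.23 to 7.12 in the 10 mice after CCl4, without overlap. This ratio was computed after the values were seen and was not tested.

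Tlr4 (ENSMUSG00000039005, chromosome 4, 66827584 to 66930284, plus strand), the lipopolysaccharide receptor itself, split the healthy group. Healthy replicates 1 and 4 held 22.4 and 21 CPM, and replicates 2 and 3 held 2.87 and 2.53 CPM. Day 1 was split as well, at 10.8 and 37.3 CPM, while day 3 (21.7, 17.5, 21.1 and 13.6 CPM) and day 7 (21.3, 18.5, 16.2 and 22.4 CPM) lay near the higher healthy pair. With a spread of this size none of the differences passed the test, and the log2 fold changes were 0.98 ± 0.73 at day 1 (adjusted p = 0.554), 0.60 ± 0.61 at day 3 (adjusted p = 0.622) and 0.69 ± 0.61 at day 7 (adjusted p = 0.557). In healthy mice Ptprc, the CD45 gene, was lower where Tlr4 was higher, at 39.0, 110, 94.7 and 36.9 CPM in replicates 1 to 4. The sum of the monocyte and neutrophil markers had the same split, at 575, 1419, 1175 and 522 CPM. Clec4f, a Kupffer cell lectin, was split in another way, at 58.9, 492, 554 and 461 CPM. After CCl4, day 3 replicate 1 held 270 CPM of Ptprc with Tlr4 at 21.7 CPM. The part of other cells in the Tlr4 values was not tested. Voom with sample quality weights gives samples far from their group less weight. It called Tlr4 higher at all 3 days, with log2 fold changes of 2.05, 1.97 and 2.00 (limma, adjusted p = 0.0435, 0.0428 and 0.0243). It also called 16.2%, 27.3% and 26.5% of all tested genes at days 1, 3 and 7. None of the other alternatives called Tlr4 at any of these days.

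**Figure D2:**
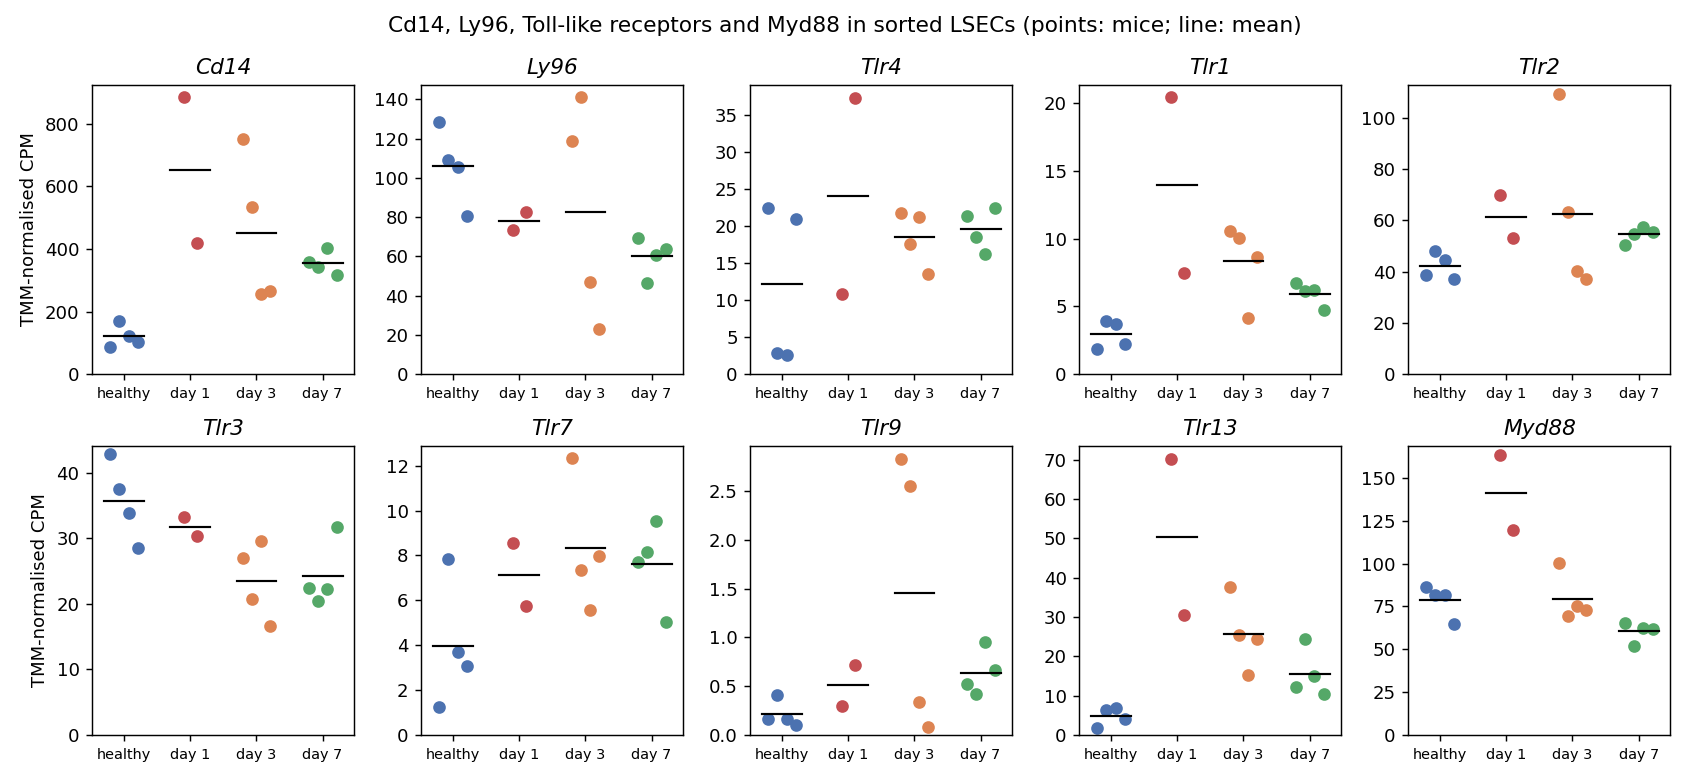
TMM-normalised CPM (vertical axis, linear from 0) of the 10 members in healthy LSECs and at day 1, day 3 and day 7. Points are mice and lines are group means: Cd14 and Tlr13 lie above every healthy sample at all 3 days, and Tlr4 falls into 2.53 and 2.87 against 21 and 22.4 CPM in healthy mice.

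Tlr1 (ENSMUSG00000044827, chromosome 5, 64924679 to 64933563, minus strand), which pairs with TLR2, was low and rose early. Its level was 1.87, 3.92, 3.72 and 2.19 CPM in healthy LSECs, 20.4 and 7.45 CPM at day 1, 10.5, 10.0, 4.16 and 8.67 CPM at day 3, and 6.75, 6.10, 6.17 and 4.75 CPM at day 7. No sample after CCl4 was as low as the highest healthy sample. The log2 fold change was 2.25 ± 0.44 at day 1 (adjusted p = 0.0109), 1.51 ± 0.38 at day 3 (adjusted p = 0.0299) and 1.02 ± 0.38 at day 7 (adjusted p = 0.146), so that the test was passed at day 1 and day 3. The day 3 call was lost without a filter on low counts, in a model of the 2 groups alone, and without healthy replicate 1, 3 or 4, day 3 replicate 1 or 2, or day 7 replicate 3 or 4 (adjusted p of up to 0.1). Of the stretches of 100 bases in its transcripts, 7.89% also occur in Tlr6, so some reads of the 2 genes may not be told apart.

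Tlr2 (ENSMUSG00000027995, chromosome 3, 83836272 to 83841767, minus strand), the lipopeptide receptor shared by several pairs, was the highest TLR per kb in healthy LSECs. It was at 38.5, 47.9, 44.6 and 37.1 CPM in healthy mice, 69.9 and 53.0 CPM at day 1, 109, 63.5, 40.1 and 37.3 CPM at day 3, and 50.3, 54.8, 57.5 and 55.5 CPM at day 7. Day 1 and day 7 lay above the healthy range, and day 3 replicates 3 and 4 lay within it. The log2 fold changes of 0.55 ± 0.34 (adjusted p = 0.452), 0.57 ± 0.28 (adjusted p = 0.258) and 0.38 ± 0.28 (adjusted p = 0.471) at days 1, 3 and 7 did not pass the test.

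Among the endosomal receptors, Tlr13 (ENSMUSG00000033777, chromosome X, 106143204 to 106160493, plus strand), the sensor of bacterial ribosomal RNA, had the largest change at day 1. It was at 1.74, 6.36, 6.78 and 3.96 CPM in healthy LSECs, 70.1 and 30.5 CPM at day 1, 37.6, 25.4, 15.3 and 24.5 CPM at day 3, and 12.2, 24.3, 14.9 and 10.3 CPM at day 7. All samples after CCl4 lay above the healthy range, and day 1 lay above day 7 without overlap. The log2 fold change was 3.42 ± 0.51 at day 1 (adjusted p = 0.0022), a 10.7-fold rise of the group mean, and 2.45 ± 0.45 at day 3 (adjusted p = 0.00746). At day 7 it was 1.71 ± 0.44 and just missed the threshold (adjusted p = 0.0519). DESeq2 put the day 7 difference past the threshold (adjusted p = 0.0033), and leaving out day 3 replicate 4 or day 7 replicate 1 did so in edgeR (adjusted p = 0.0396 at the lowest).

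Tlr3 (ENSMUSG00000031639, chromosome 8, 45395665 to 45411080, minus strand), the receptor of double-stranded RNA, had lower means after CCl4 without passing the test. It was at 42.8, 37.5, 33.8 and 28.4 CPM in healthy LSECs, 33.2 and 30.3 CPM at day 1, 27.0, 20.7, 29.5 and 16.6 CPM at day 3, and 22.5, 20.3, 22.2 and 31.6 CPM at day 7. The groups overlapped at each day, and the log2 fold changes were -0.17 ± 0.27 (adjusted p = 0.836), -0.60 ± 0.22 (adjusted p = 0.113) and -0.56 ± 0.22 (adjusted p = 0.16) at days 1, 3 and 7. DESeq2 called Tlr3 lower at day 3 (adjusted p = 0.0359), as did edgeR without day 3 replicate 3 (log2 fold change of -0.90, adjusted p = 0.0297). Gm45542 overlaps Tlr3 on the other strand and shares 3.32% of its stretches of 100 bases, and whether the counting used the strand is not given in the sources used here.

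Tlr7 (ENSMUSG00000044583, chromosome X, 167304929 to 167330558, minus strand), the receptor of single-stranded RNA, was at 1.24, 7.84, 3.71 and 3.08 CPM in healthy mice, 8.55 and 5.75 CPM at day 1, 12.3, 7.37, 5.58 and 7.99 CPM at day 3, and 7.71, 8.15, 9.52 and 5.04 CPM at day 7. Healthy replicate 2 lay inside the range of every later group. The log2 fold changes of 0.85 ± 0.53 (adjusted p = 0.458), 1.07 ± 0.45 (adjusted p = 0.179) and 0.94 ± 0.45 (adjusted p = 0.249) at days 1, 3 and 7 did not pass the test.

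Tlr9 (ENSMUSG00000045322, chromosome 9, 106222598 to 106226883, plus strand), the receptor of CpG DNA, rested on 8 to 234 counts per sample. It was at 0.160, 0.411, 0.166 and 0.103 CPM in healthy LSECs, 0.299 and 0.715 CPM at day 1, 2.83, 2.55, 0.339 and 0.0849 CPM at day 3, and 0.520, 0.420, 0.948 and 0.670 CPM at day 7. Only day 3 replicates 1 and 2 exceeded 1 CPM, and replicate 4 of the same day was below every healthy sample. The log2 fold change of 2.78 ± 0.88 at day 3 did not pass the test (adjusted p = 0.0755), and without day 3 replicate 4 it did (adjusted p = 0.0137). DESeq2 and voom with sample quality weights also called Tlr9 higher at day 3 with all 14 samples (adjusted p = 0.0052 at the lowest). With only replicates 3 and 4 at day 3 it was -0.01 (adjusted p = 0.996). Siglech, a lectin of plasmacytoid dendritic cells, was at 52.0, 32.3, 3.6 and 1.95 CPM in the same 4 samples and at 2.45 to 12.7 CPM in healthy ones. All 10 dendritic cell markers summed to 295 to 379 CPM at day 3 and 511 to 574 CPM in healthy LSECs. Most of this sum was Bst2 and Zbtb46, with means of 357 and 132 CPM in healthy LSECs and 178 and 62.4 CPM at day 3. Each of the other markers except Xcr1 had a higher mean at day 3, such as Flt3 (16.1 against 4.19 CPM, 0 to 41.2 CPM at day 3). The part of dendritic cells in the Tlr9 values was not tested.

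Myd88 (ENSMUSG00000032508, chromosome 9, 119335934 to 119341411, minus strand), the shared adaptor, rose at day 1. It was at 86.5, 81.8, 81.4 and 64.7 CPM in healthy LSECs, 163 and 119 CPM at day 1, 100.3, 69.3, 75.1 and 72.7 CPM at day 3, and 65.4, 51.9, 62.3 and 61.9 CPM at day 7. Both day 1 samples lay above all other 12 samples. The log2 fold change against healthy was 0.85 ± 0.20 at day 1 (adjusted p = 0.0318), 0.01 ± 0.17 at day 3 (adjusted p = 0.974) and -0.38 ± 0.17 at day 7 (adjusted p = 0.22). The difference between day 3 and day 1, tested directly, was -0.83 ± 0.20 (adjusted p = 0.047), and that between day 7 and day 3, -0.40 ± 0.17 (adjusted p = 0.234), did not pass. The day 1 call was lost without any of the 4 healthy samples, either day 1 sample or day 7 replicate 4. That between day 3 and day 1 was lost without healthy replicate 1, 2 or 3, either day 1 sample, day 3 replicate 2 or 3, or day 7 replicate 2. Acaa1a overlaps Myd88 on the other strand and shares 4.69% of its stretches of 100 bases.

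In all, 4 of 10 members were called higher at day 1 and 0 lower, where 2.42% of all tested genes were called higher, 1.64% lower and 4.06% in either direction. At day 3 it was 3 of 10 higher against a background of 4.62% (2.58% lower, 7.19% in either direction), and at day 7 it was 1 of 10 against 2.19% (0.992% lower, 3.18% in either direction). Between day 3 and day 1, 1 member was lower, against 0.969% of tested genes (1.57% higher, 2.54% in either direction). None was called between day 7 and day 3 in edgeR, where 1.77% of genes were (0.413% higher, 1.36% lower), although Myd88 had an unadjusted p under 0.05. DESeq2 called 0 members and 6.7% of all genes. Voom with quality weights called 1 member, Ly96, and 22.5% of all genes. The median log2 fold change of the members was 0.91 at day 1, 0.83 at day 3 and 0.81 at day 7, while the median of all tested genes was -0.03, 0.18 and 0.02. Without day 1 replicate 1, which held the higher Cd14, Tlr1, Tlr13 and Myd88 level of the pair, 0 members were called at day 1. The log2 fold changes were then 1.76 for Cd14 (adjusted p = 0.141), 2.66 for Tlr13 (adjusted p = 0.0678), 1.32 for Tlr1 (adjusted p = 0.471) and 0.57 for Myd88 (adjusted p = 0.631), with the lone sample left at day 1 assumed to vary like the other groups.

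**Figure D3:**
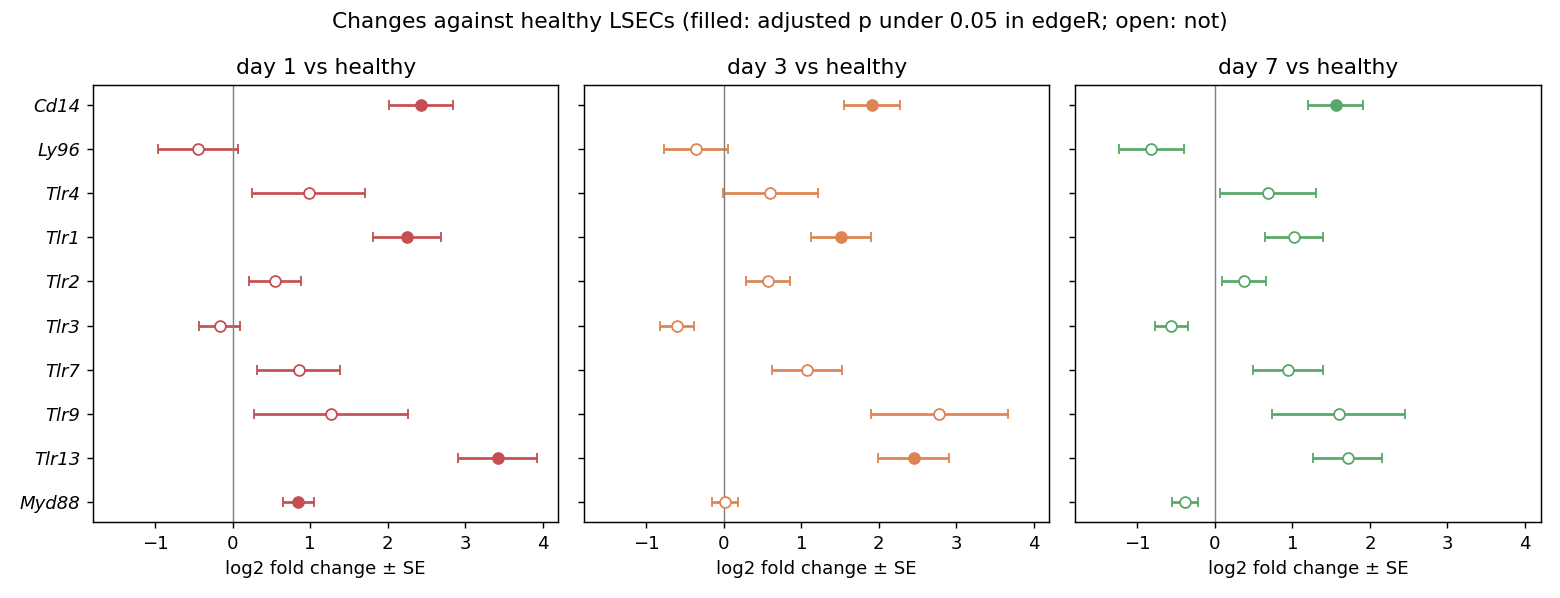
Log2 fold change against healthy LSECs (horizontal axis, bars of 1 SE) of the 10 members at day 1, day 3 and day 7, from edgeR. Filled points passed an adjusted p of 0.05: 4 members at day 1, 3 at day 3 and 1 at day 7, while Ly96 and Tlr3 lie left of 0 at each day.

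Markers of myeloid cells were higher in many of the samples where these members were higher, and neutrophil and macrophage markers differed in which samples they marked. At day 1, 6 of 12 monocyte and neutrophil markers were called higher, and S100a8, from this list, was at 2140 and 736 CPM against 4.03 to 34.0 CPM in healthy mice. Day 3 replicates 1 and 2 held 992 and 590 CPM of S100a8, and replicates 3 and 4 held 12.8 and 3.21 CPM, no more than healthy samples. Cd14, at 257 and 265 CPM in those 2 samples, and Tlr13, at 15.3 and 24.5 CPM, were above the healthy range. So were some other myeloid genes in the same 2 samples: Cd68 at 245 and 233 CPM (26.1 to 112 CPM in healthy mice), Lyz2 at 1347 and 1266 CPM (427 to 1200 CPM), Chil3 at 10.1 and 7.39 CPM (0 to 0.884 CPM) and Spi1 at 49.1 and 66.1 CPM (16.0 to 48.3 CPM). Others were not. The Kupffer cell and macrophage markers summed to 989 and 987 CPM there, within the healthy range (355 to 2255 CPM). General leukocyte markers (8 genes) summed to 977 and 717 CPM, also within it (582 to 1192 CPM). Clec4f, at 66.5 and 71.7 CPM, was within its healthy range (58.9 to 554 CPM). Timd4, another Kupffer cell marker, was at 6.82 and 5.48 CPM, below every healthy sample. Ly6g and Retnlg, which mark neutrophils, were at 0 counts in day 3 replicate 4, and Ly6g and Chil3 in healthy replicate 4.

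With only replicates 3 and 4 kept at day 3, an alternative added after the data were seen, Cd14 (log2 fold change of 1.09, adjusted p = 0.0456) and Tlr13 (2.05, adjusted p = 0.0342) were called higher and Ly96 lower (-1.62, adjusted p = 0.00759), so 3 of 10 members were called where 9.72% of genes were. Tlr1 (1.11, adjusted p = 0.135) was not. At day 7 S100a8 was at 28.9 to 45.8 CPM, and 1 of 12 monocyte and neutrophil markers was called, Lyz2, the lysozyme of macrophages and neutrophils, at 3919 to 9304 CPM against 427 to 1200 CPM in healthy mice. Cd68, a lysosomal protein of macrophages and among the Kupffer cell and macrophage markers, was called higher at day 3 and day 7, where it was at 208 to 364 CPM against 26.1 to 112 CPM in healthy mice. Clec4f, which is restricted to Kupffer cells, was at 109 to 349 CPM at day 7 and 58.9 to 554 CPM in healthy mice. Ptprc, which encodes CD45, was at 134 to 154 CPM at day 7 and 36.9 to 110 CPM in healthy mice. The part of macrophages or monocytes in the Cd14, Tlr1 and Tlr13 levels was not tested.

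**Figure D4:**
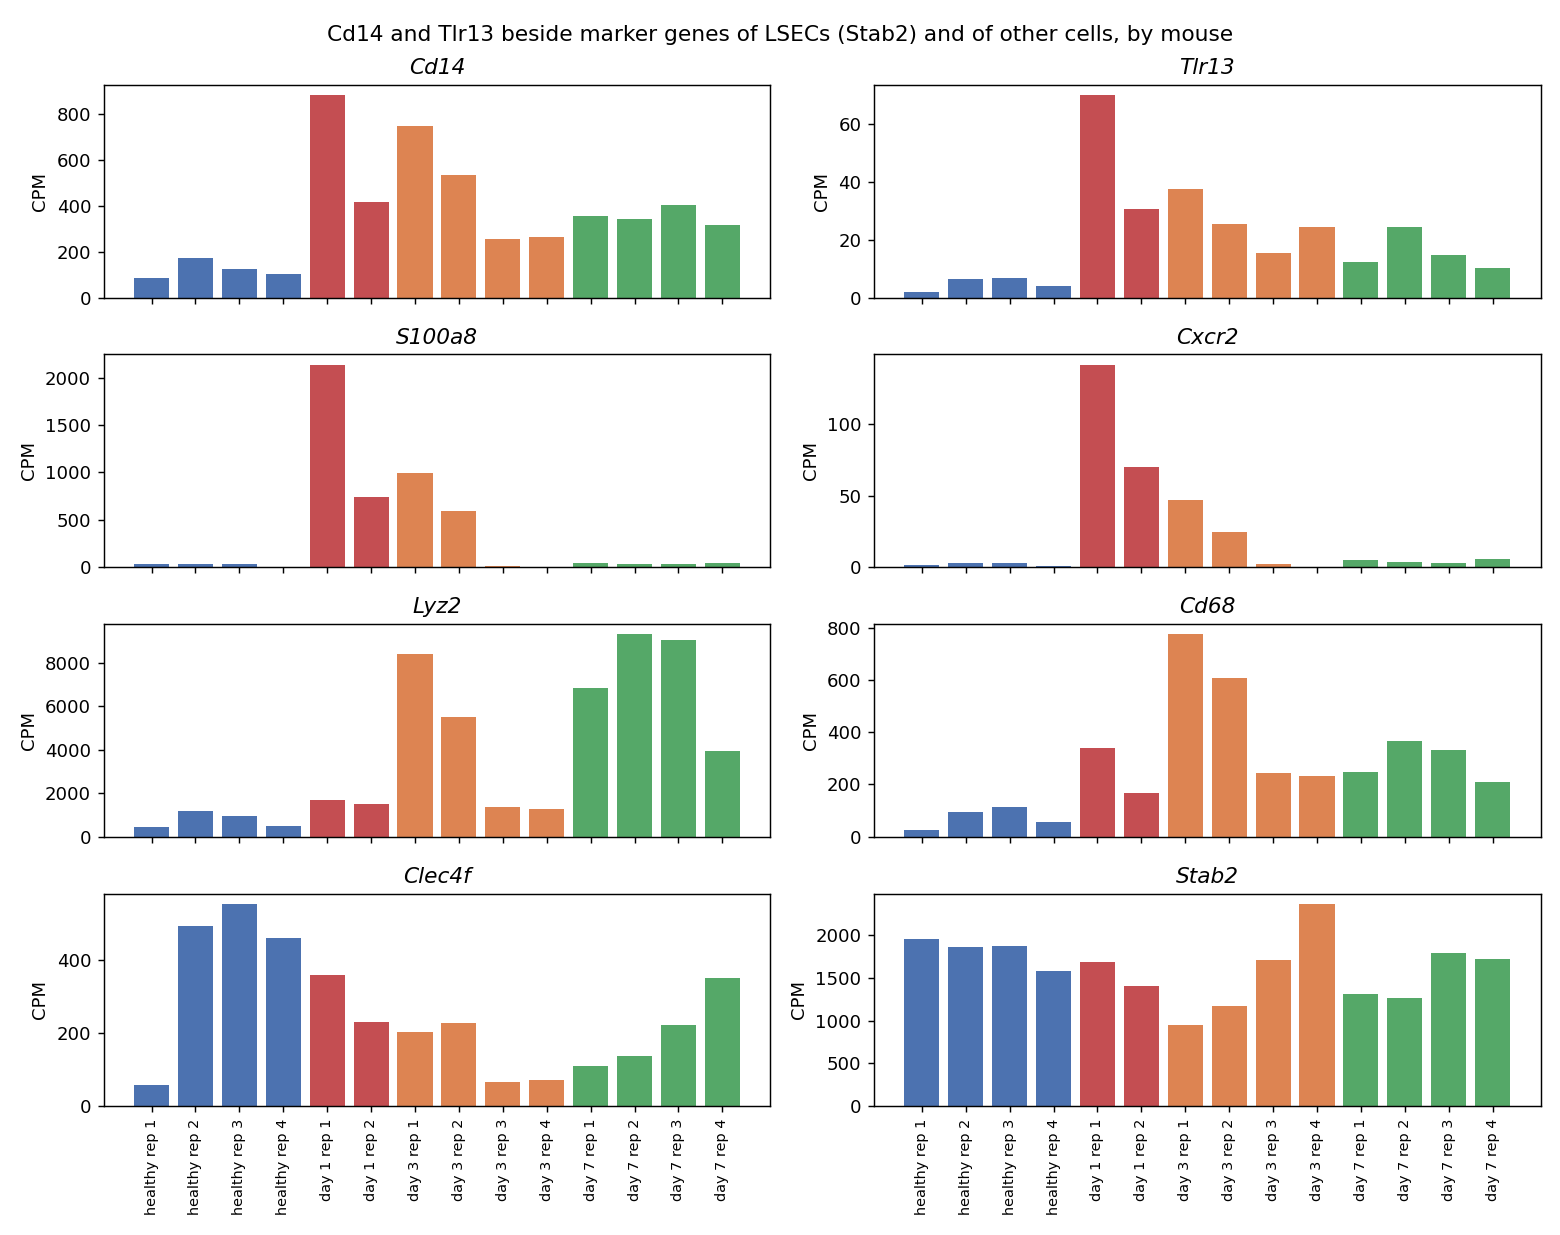
CPM (bars, linear from 0) in each of the 14 mice for Cd14 and Tlr13 beside S100a8, Cxcr2, Lyz2, Cd68, Clec4f and Stab2. S100a8 is high at day 1 and in day 3 replicates 1 and 2 and is 12.8 and 3.21 CPM in day 3 replicates 3 and 4, where Cd14 is at 257 and 265 CPM, while Cd68 (245 and 233 CPM) and Lyz2 (1347 and 1266 CPM) are above every healthy sample there. Clec4f, at 66.5 and 71.7 CPM in these 2 samples, lies within its healthy range.

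The other TLRs were low. Tlr6, which also pairs with TLR2, had a mean of 7.11 CPM in healthy LSECs and 14.3 CPM at day 1 (log2 fold change of 1.01 ± 0.37, adjusted p = 0.155). Tlr8, an endosomal RNA receptor, rose at day 7 from 1.95 ± 1.21 to 7.44 ± 1.72 CPM (SD, n = 4 each), a log2 fold change of 1.93 ± 0.49 (adjusted p = 0.0488). It was the 1 of 5 other TLRs called at any day. At day 7, 2.19% of all tested genes were called higher, 0.992% lower and 3.18% in either direction. Tlr5, the flagellin receptor, had group means of 0.185 to 0.527 CPM, and Tlr11 and Tlr12, which bind profilin of protozoa, had group means of 0.598 to 1.63 CPM and 1.21 to 2.66 CPM.

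Of 12 accessory and trafficking genes, 2 were higher at day 1, 2 higher and 1 lower at day 3, and 1 lower at day 7. Of all tested genes, 4.06%, 7.19% and 3.18% were called in either direction at days 1, 3 and 7. These shares also apply to the lists that follow, where counts of 1 gene lie near them. Lbp, the serum protein that passes lipopolysaccharide to CD14, had a mean of 96.3 CPM in healthy LSECs, 178 CPM at day 1, 47.1 CPM at day 3 and 63.8 CPM at day 7. Its log2 fold changes were 0.89 ± 0.17 (adjusted p = 0.0104), -1.03 ± 0.15 (adjusted p = 0.00212) and -0.59 ± 0.15 (adjusted p = 0.0432), so that Lbp was higher at day 1 and lower at days 3 and 7, while Cd14 was higher at all 3. The drop from day 1 to day 3 was called too (-1.92 ± 0.17, adjusted p = 0.0003). Ctsb, a lysosomal protease, was higher at day 1 (log2 fold change of 1.71, adjusted p = 0.000256) and day 3 (0.61, adjusted p = 0.0317), and Slc15a3, an endolysosomal peptide transporter, at day 3 (1.2, adjusted p = 0.0331).

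Of 18 adaptors and kinases, 1 was called at day 1, Tirap, which bridges TLR2 and TLR4 to MyD88. Like Myd88 it was higher at day 1 (28.2 to 54.5 CPM, log2 fold change of 0.95 ± 0.21, adjusted p = 0.0211) and lower at day 3 than at day 1 (-1.04 ± 0.21, adjusted p = 0.0211). At day 3 Ikbke, a kinase of the interferon arm, was higher (1.63 ± 0.37, adjusted p = 0.0177) and Chuk, an I-kappa-B kinase, lower (-0.82 ± 0.17, adjusted p = 0.0142). At day 7 Ikbke (1.79 ± 0.37, adjusted p = 0.0216) and Ticam2, the bridging adaptor of TLR4, were higher (2.03 ± 0.47, adjusted p = 0.0357). Of 12 transcription factors, Spi1, which encodes PU.1 of myeloid cells, was higher at day 1 (34.0 to 129.7 CPM, 1.93 ± 0.46, adjusted p = 0.0314). At day 3 Irf5 was higher (1.28 ± 0.37, adjusted p = 0.0496) and Fos lower (-0.90 ± 0.20, adjusted p = 0.0164).

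Of 15 inhibitors of the pathway, 1, 3 and 1 were higher at days 1, 3 and 7, where 2.42%, 4.62% and 2.19% of all tested genes were. Tnip3, a partner of the ubiquitin-editing protein A20, was called at all 3 days, from a healthy mean of 2.05 CPM to 6.82, 23.9 and 19.5 CPM (log2 fold changes of 1.73 ± 0.41, 3.54 ± 0.38 and 3.25 ± 0.38, adjusted p = 0.0296, 0.000678 and 0.00179). In day 3 replicates 3 and 4 it was at 17.3 and 24.3 CPM, and in replicates 1 and 2 at 36.2 and 17.9 CPM. Nfkbia, the inhibitor of NF-kB, was higher at day 3 (1.42 ± 0.38, adjusted p = 0.0374), as was Tnfaip3, which encodes A20 (0.90 ± 0.24, adjusted p = 0.038).

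Over the 14 samples and 11631 genes of at least 5 CPM on average, the genes whose log2 CPM was most like that of Cd14 by Pearson's r included Sirpb1a (0.96) and Sirpb1c (0.958). Those of Tlr13 were Emilin2 (0.973), Lilr4b (0.966) and Tnfrsf11a (0.958), and those of Tlr2 were Epsti1 (0.951), Bcl2a1b (0.948) and Bcl2a1a (0.936). Tlr4 had no gene as close, with Gm6598 (0.741), Pex11g (0.703) and Gpi1 (0.694). The points share libraries and group differences, and these values are descriptions.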

How the data were processed

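RNA of sorted LSECs from 14 Balb/c mice was sequenced after SMARTseq v4 library preparation. The authors mapped reads to GRCm38 with STAR and assembled them with StringTie (versions not given in the sources used here), and deposited raw counts for each Ensembl gene. Strand use is not stated. Names, positions and exon lengths came from GENCODE vM21, which held 54495 of the 54524 genes. The members and gene lists were chosen with earlier results of these data known.

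Genes were filtered with filterByExpr (minimum count 10, minimum total count 15), scaled with TMM and tested with edgeR 4.0.16 (R 4.3.3) as 4 group means fitted to the 14 samples together. P-values were adjusted over 26626 genes (Benjamini-Hochberg, threshold 0.05). DESeq2 1.42.0, which the study names, served as an alternative, as did limma 3.58.1 (voom with sample quality weights), other scalings and filters, 2-group models, the replicate number as a block, and leaving out each sample. SE is the log2 fold change over the square root of F. Log2 CPM used a prior count of 2. Depth of 46401496 to 103912264 counts per sample limits low genes only, and a level below 3 counts was taken as not detected. Floors cover counting error only. Each sample is labelled as a mouse of its own, no pair agreed within sampling noise, and p-values measure the spread between these samples. Named genes were all 10 members, the other TLRs, called genes of the pathway lists (at most 4 per list and comparison by size of change), the 3 genes most like Cd14, Tlr2, Tlr4 and Tlr13, and marker genes that define a cell type. A gene that this rule names is not reported here. Scripts were tested on simulated data.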

Additional observations from a re-analysis of the deposited data

Results flagged for a closer look

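The change of Myd88 against healthy LSECs differed between day 1 and day 3 in edgeR over all 14 samples. Against the same healthy mice the log2 fold change was 0.85 ± 0.20 at day 1 and 0.01 ± 0.17 at day 3. The difference of these changes was -0.83 (adjusted p = 0.047 in edgeR). It rests on the 2 samples of day 1, and the call was lost in 12 of 23 alternatives. Among the members, 30 groups of 4 samples were examined for a sample far from the others (Dixon's test), and 0 were found, where chance gives about 1 in 20.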

How the results depend on the processing

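Of 1125 single-gene values under the alternatives, 1002 kept their direction and side of the threshold, 44 lost and 23 gained a call, and 56 changed direction, 2 of these called. Cd14 and Tlr13 were called at day 3 under every alternative.

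The number of members called at day 1 was 4, against 5 with voom and sample quality weights, 3 without a filter and 2 with the replicate block. The share of all tested genes called was 4.06%, against 16.2%, 1.86% and 2.23% in the same settings. At day 3 the number of members was 3, against 5 with DESeq2, 7 with voom, and 2 (without Tlr1) without a filter, with a model of the 2 groups and with the replicate block. The share of all genes was 7.19%, against 14.2% with DESeq2 and 27.3% with voom. It was 3.47% without a filter, 5.14% with the 2 groups and 5.2% with the replicate block. At day 7 the number of members was 1, against 2 with DESeq2, with library size only and with at least 10 counts in every sample, 6 with voom, 3 with a model of the 2 groups, and 0 without a filter and with the replicate block. The share of all genes was 3.18%, against 10.2%, 2.68% and 6.95% in the first 3 of these settings. It was 26.5% with voom, 14.6% with the 2 groups, 1.34% without a filter and 1.63% with the replicate block. Between day 3 and day 1 the number of members was 1, against 0 with library size only, without a filter, with the 2 groups only and with the replicate block, and 3 with only replicates 3 and 4 at day 3. The share of all genes was 2.54%, against 2.08%, 1.18%, 0.762%, 1.17% and 7.74% in the same settings. Between day 7 and day 3 the number of members was 0, and 1 with voom, where the shares of all genes were 1.77% and 22.5%. Leaving out each sample gave 0 to 4 members for day 1, 2 to 4 for day 3, 0 to 2 for day 7, 0 to 1 between day 3 and day 1, and 0 in each case between day 7 and day 3. The cause was not tested.

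These log2 fold changes changed sign. At day 3, Ly96 was 0.0885 with voom, Tlr2 -0.15 and Tlr9 -0.0134 with only replicates 3 and 4. Myd88 at day 3 was -0.0104 with voom, -0.0074 with at least 10 counts in every sample, -0.17 without a filter, -0.0699 with the 2 groups and -0.11 with only replicates 3 and 4. Between day 3 and day 1, Ly96 was -0.0484 and Tlr2 -0.11 without a filter, and Tlr2 was -0.0416 with the 2 groups. With only replicates 3 and 4, Ly96 was -1.16 (adjusted p = 0.0425), Tlr2 -0.67 (adjusted p = 0.0487), Tlr7 -0.0756 and Tlr9 -1.26 between day 3 and day 1, and Cd14 0.49, Ly96 0.83, Tlr2 0.54, Tlr7 0.21 and Tlr9 1.62 between day 7 and day 3. Leaving out each sample took Tlr4 at day 1 from -0.20 to 1.58 and Myd88 at day 3 from -0.18 to 0.10. Between day 3 and day 1 it took Cd14 from -1.08 to 0.0064, Ly96 from -0.28 to 0.31, Tlr1 from -1.39 to 0.072, Tlr2 from -0.45 to 0.13, Tlr4 from -1.09 to 0.69 and Tlr7 from -0.14 to 0.45. Between day 7 and day 3 it took Cd14 from -0.43 to 0.12, Tlr2 from -0.27 to 0.32, Tlr3 from -0.0087 to 0.34 and Tlr7 from -0.16 to 0.21. Tlr9 has no value with at least 10 counts in every sample.

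Same-numbered mice did not pair. Of 18 pairs, 0 had deviations that correlated over 0.1, so the replicate block only tests a shared number. Scaling by library size raised the share of rises among all calls from 64.2% to 75.1% at day 3 and from 68.8% to 86.8% at day 7. Tlr9 had the fewest counts of the members (8 to 234), and the 2 samples of day 1 limit every comparison with that day.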
